A study of Arabidopsis thaliana with 21 samples.

Results

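NAC genes encode plant transcription factors named for NAM, ATAF and CUC, and 97 of them in Arabidopsis thaliana are described here. They were chosen by name: all TAIR10 genes whose symbol or synonym is NAC followed by 3 digits, which gave 100 genes, without CUC1, CUC2 and CUC3. The 97 genes stand among 27444 nuclear protein-coding genes and 37899 annotated nuclear genes. They lay on chromosomes 1 to 5 in numbers of 31, 8, 21, 10 and 27, and 13 pairs of successive members lay at most 7236 bp apart. Their median length was 1938 bp, against 2078 bp for all protein-coding genes.

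The data came from chromatin immunoprecipitation and sequencing of whole Col-0 seedlings at 7 days after germination, grown on agar in long days. H2AK121ub, a monoubiquitin on a C-terminal lysine of histone H2A, was measured in WT, in the atbmi1a/b/c triple mutant (atbmi1abc), in the clf28/swn7 double mutant (clfswn) and in the lhp1 mutant. H3K27me3, a trimethylated lysine in the tail of histone H3, was measured in WT, atbmi1abc and clfswn. Each mutant and mark had 2 libraries from independent biological replicates, each set against a Col-0 library. The labels give the Col-0 ecotype for all groups, and whole seedlings mix all organs, so a change in a few cells and a smaller change in many cannot be told apart. The 6 Col-0 H2AK121ub samples held only 2 different libraries, so the 3 mutants shared their H2AK121ub controls, whereas the H3K27me3 controls of the 2 mutants differed.

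Polycomb group proteins keep developmental genes silent in cells where they are not needed. The AtBMI1 proteins are RING finger subunits of Polycomb repressive complex 1 and place H2AK121ub. CLF and SWN are methyltransferases of Polycomb repressive complex 2 and place H3K27me3, and LHP1 is a chromodomain protein that binds H3K27me3. NAC proteins share an N-terminal DNA-binding domain. Well known members switch on the secondary walls of xylem vessels and fibres, shape the root cap, drive leaf ageing or answer drought and salt, and some are held at a membrane until they are cut free.

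The measured values are reads in peak regions. A region was given to a gene when it overlapped the gene body or the 2000 bp upstream, and each gene was read at its strongest region, the one with the highest mean reads over the 4 libraries of a comparison. Over all regions of a comparison, the WT H2AK121ub libraries held 7278519 to 7926125 reads, those of atbmi1abc 2796942 and 4212464, those of clfswn 6601113 and 6931436, and those of lhp1 9405576 and 8224958. For H3K27me3, WT held 6225930 and 4812260 reads against 4770541 and 4205686 in atbmi1abc, and 9602490 and 6320011 reads against 1428193 and 2245276 in clfswn. The main ratios follow the authors' rescaling, which left reads nearly as counted, so library depth and overall mark level cannot be told apart in them. The family counts and those of the main groups are therefore given a further time with each library scaled to its total reads over the regions, which asks whether a gene moved relative to the other regions. That scaling shifted the median log2 ratio of all protein-coding genes by more than 0.1 in every comparison, most of all for H2AK121ub in atbmi1abc, from -0.98 to 0.07, and for H3K27me3 in clfswn, from -2.97 to -0.72.

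In WT, H2AK121ub marked most NAC genes and H3K27me3 about as many as it left unmarked. A gene counted as marked where a WT peak lay on its body or upstream stretch in both Col-0 replicates that served as controls of atbmi1abc. H2AK121ub marked 84 of 97 NAC genes, 86.6% against 67.0% of all protein-coding genes. H3K27me3 marked 49 of them, 50.5% against 34.4%. In the separate H3K27me3 controls of clfswn the share was 57.7% against 38.4%, and the classes below do not use these libraries. In either replicate alone the counts were 86 and 86 genes for H2AK121ub and 52 and 50 for H3K27me3. With only peaks above the median reads per kb, the shares were 49.5% against 44.2% for H2AK121ub and 44.3% against 24.2% for H3K27me3. Of the 97 genes, 46 carried both marks (47.4%, against 28.4% of all genes), 38 only H2AK121ub (39.2% against 38.6%), 3 only H3K27me3 (3.09% against 5.92%) and 10 neither (10.3% against 27.1%). The higher share of marked genes thus lay in the class with both marks, while the only-H2AK121ub class was close to the background. These shares describe one family and were not tested.

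The members with a described role fell into groups that carried the marks to different extents. All 5 root cap genes and all 3 phloem genes carried both marks. Of 14 genes of the xylem and fibre wall group, which contains the vessel switches VND1 to VND7 and the fibre switches NST1 to NST3, 11 carried both marks, 1 (VNI2, a repressor of VND7) only H2AK121ub, 1 (VND4) only H3K27me3 and 1 (VND6) neither. Of 12 membrane-tethered members only 2 carried both marks, 8 carried only H2AK121ub and 2 neither. In the stress group, which holds ATAF1, ATAF2 and RD26, 2 of 7 carried both marks and 5 only H2AK121ub. In the senescence group both marks lay on 3 of 5 genes, ORE1, JUB1 and NAC046, and only H2AK121ub on NAP and ORS1. The group of seed, flowering and growth genes had 5 of 8 with both marks and 3 with only H2AK121ub. The DNA damage group, with the master regulator SOG1, had none with both marks, 2 with only H2AK121ub and 1 with neither.

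**Figure D1:**
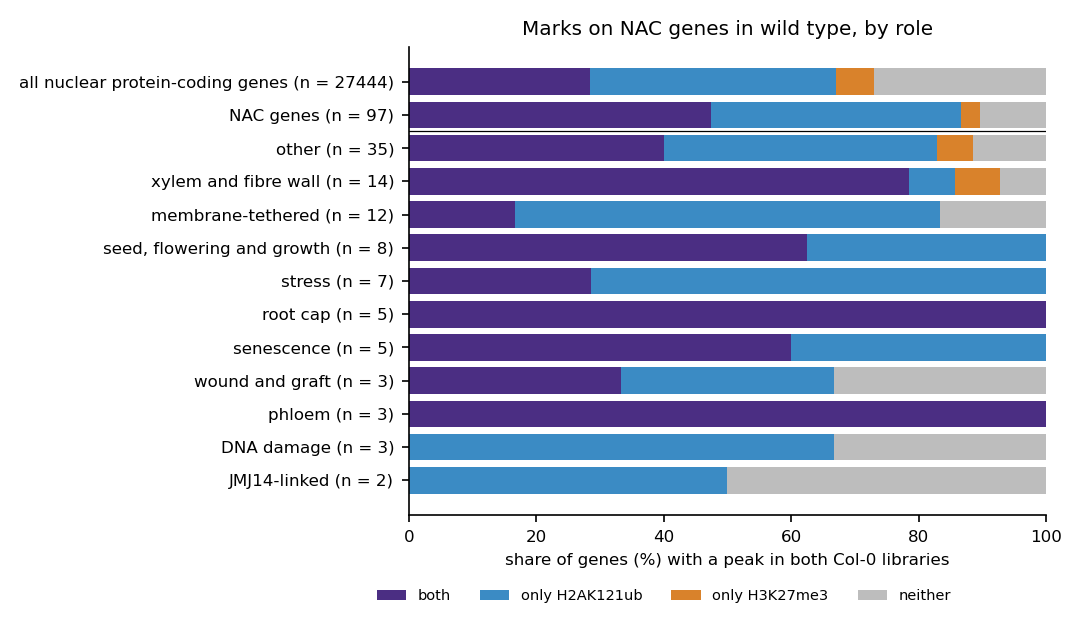
WT marks by role group, as the share of genes (%) with both marks, only H2AK121ub, only H3K27me3 or neither. Peaks are those found in both Col-0 controls of atbmi1abc. The upper bars give all protein-coding genes and all NAC genes. The root cap and phloem bars hold only genes with both marks, and the membrane-tethered bar is mostly only-H2AK121ub, 8 of 12 genes.

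NAC013, a membrane-tethered regulator of the response to impaired mitochondria, was the only member with no peak in any of the 10 tables. A WT peak of either mark was lacking in both replicates on NAC013, NAC044, NAC063, NAC069, NAC091 and NAC101 (VND6). NAC011, NAC052, NAC082 and NAC093 had WT peaks in a single replicate at most. The 3 members with only H3K27me3 were VND4, NAC023 and NAC024.

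The strongest WT H2AK121ub signal per length lay on VND3 (NAC105, AT5G66300, chromosome 5, 26479766 to 26481528), a switch of vessel formation, with 1249 and 1365 reads per kb in the 2 WT replicates. NAC074 followed with 1025 and 1011, NAP with 904 and 1103, NAC089 with 902 and 824 and NAC006 with 861 and 879 reads per kb. NAP drives leaf ageing and NAC089 is membrane-tethered. Much of the H2AK121ub regions of NAC074 and NAC089, 61% and 70.9% of their bases, lay beyond the gene and its upstream stretch. The highest H3K27me3 levels lay on VND3 with 855 and 613 reads per kb, NAC074 with 656 and 516 and NST1 with 619 and 500. VND3 and NAC074 thus led both orders. The densest H2AK121ub peak of a marked NAC gene had a median of 413 and 411 reads per kb, not above the 443 and 442 over all marked genes. For H3K27me3 the same median was higher in NAC genes, 410 and 306 against 330 and 256 reads per kb.

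The NAC peaks were also longer. The longest H3K27me3 peak of a marked NAC gene had a median of 3028 and 3127 bp in the 2 replicates, against 2037 and 2074 bp over all marked genes, and the longest H2AK121ub peak 847.5 and 952.5 bp against 731 and 768 bp. The strongest H3K27me3 region covered a median of 92.4% of the NAC gene body, against 24.8% over all genes tested, and took in the transcription start of 33 of 54 genes (61.1% against 36.7%). The strongest H2AK121ub region covered a median of 32.2% of the body (15.9% over all genes) and took in the start of 20 of 87 genes (16.2% over all genes). Its centre lay at a median of 442.5 bp downstream of the start. Of the bases in these H2AK121ub regions, 43.3% on average lay in coding exons of the member, 14.1% in its UTRs, 14.9% in introns, 20.7% in the upstream stretch and 7.0% beyond both. H3K27me3 regions spread more evenly, with 23.4%, 9.75%, 15.3%, 27.7% and 23.8%. For 18 of 87 genes in H2AK121ub and 11 of 54 in H3K27me3, the strongest region of the atbmi1abc comparison touched only the upstream stretch, where it can belong to a neighbour. These shares of 20.7% and 20.4% stood against 38.1% and 42.6% over all genes tested. Such a region covers none of the body, so the coverage medians above also reflect how often it was the strongest.

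**Figure D2:**
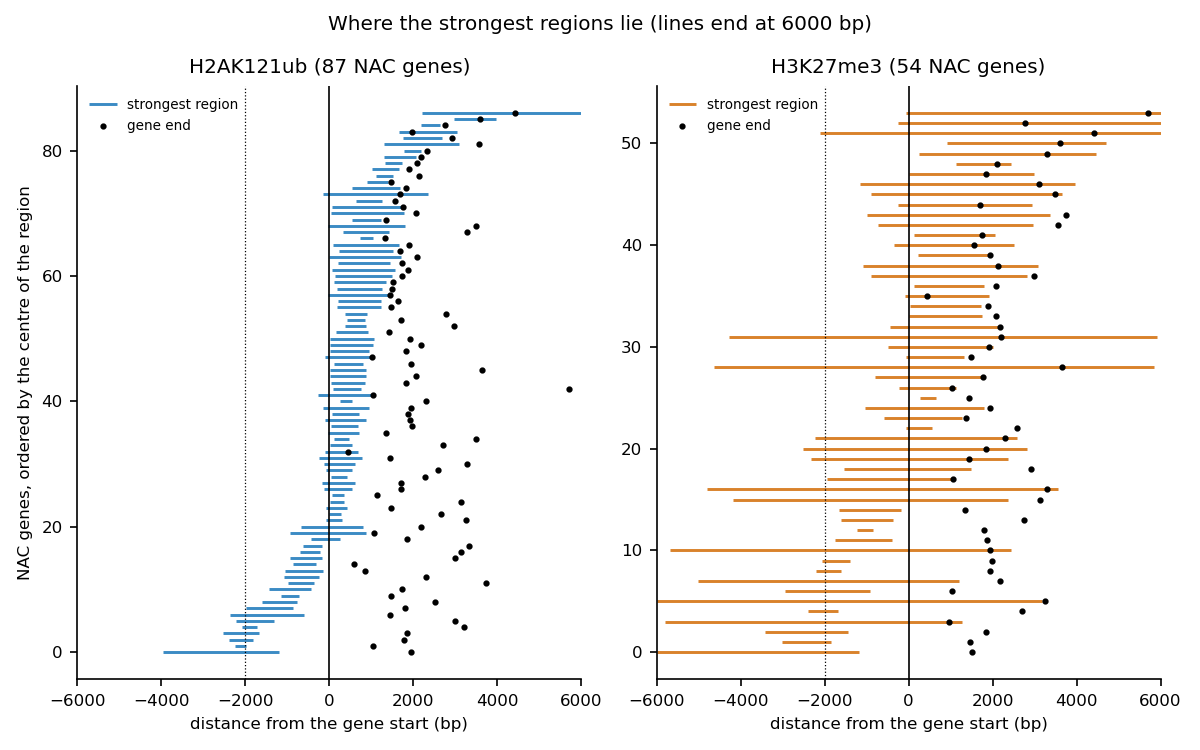
Position of the strongest region of each NAC gene relative to its start (x axis, bp along the direction of transcription, with lines ending at the plot edge), 1 line per gene ordered by region centre, with dots at gene ends and a dotted line at the upstream limit. The H3K27me3 regions are longer, with a median length of 2919.5 bp against 828 bp, and most of them run across the start.

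Promoter sequence was read for members that changed most in a comparison, from 250 bases before the annotated start to 50 bases from it, in TAIR10.1. The search covered 3 short motifs linked to Polycomb targeting in plants, on both strands: the telobox AAACCCTA, a GAGA repeat GAGAGA and the RY element CATGCA. A telobox was present in 9 of 97 NAC promoters (9.28%, against 6.22% of 27443 promoters), a GAGA repeat in 34 (35.1% against 29.2%) and an RY element in 16 (16.5% against 9.72%). The 3 promoters with a match are printed here because their genes led the increases of H2AK121ub in clfswn and lhp1 or the reduction of H3K27me3 in clfswn. They are those of NAC067 (chr4:659129-659428, minus strand), NAC1 (NAC022, chr1:20949232-20949531, minus strand) and VND7 (NAC030, chr1:27074452-27074751, plus strand), with motif matches in capitals. NAC067 held 1 telobox and 3 GAGA matches that overlap each other, NAC1 held 1 RY element, and VND7 held 5 overlapping GAGA matches in a single run. The promoters of NAC089 and NAC056 held none of these letters.
NAC067: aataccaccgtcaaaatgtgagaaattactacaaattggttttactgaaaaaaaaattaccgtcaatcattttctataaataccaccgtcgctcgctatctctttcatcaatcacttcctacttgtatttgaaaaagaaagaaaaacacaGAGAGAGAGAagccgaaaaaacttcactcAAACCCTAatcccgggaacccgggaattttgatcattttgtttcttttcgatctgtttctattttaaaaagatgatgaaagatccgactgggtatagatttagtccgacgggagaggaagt
NAC1: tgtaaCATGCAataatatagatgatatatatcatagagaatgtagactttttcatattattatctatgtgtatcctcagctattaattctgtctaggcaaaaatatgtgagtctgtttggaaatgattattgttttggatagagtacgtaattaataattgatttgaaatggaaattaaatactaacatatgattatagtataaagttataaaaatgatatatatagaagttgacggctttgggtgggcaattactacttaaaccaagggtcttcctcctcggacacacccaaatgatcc
VND7: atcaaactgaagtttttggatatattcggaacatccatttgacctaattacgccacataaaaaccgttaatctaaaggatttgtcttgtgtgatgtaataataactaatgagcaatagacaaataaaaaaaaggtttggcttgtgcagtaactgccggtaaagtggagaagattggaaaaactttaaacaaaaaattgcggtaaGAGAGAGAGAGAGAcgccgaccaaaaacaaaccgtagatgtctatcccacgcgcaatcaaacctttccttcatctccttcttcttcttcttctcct

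To ask what loss of the AtBMI1 proteins did to H2AK121ub, mutant and WT reads were compared over the 87 NAC genes with a region in both replicates. Here and below a gene was called at a Benjamini-Hochberg adjusted p under 0.05 from edgeR's quasi-likelihood test over all regions. It was called reduced when its fitted level was under 80% of WT and increased when that level was over 120%. Each value after ± is the SE of the log2 ratio (n = 2 pairs of libraries), computed from the test's F statistic. The test draws on all regions to estimate variance, so this SE is not the spread between the 2 pairs. In atbmi1abc, 62 NAC genes had reduced H2AK121ub, beside 66.0% of all genes tested. None was increased, beside 0.566%, with 0 members also at an unadjusted p under 0.05 upwards and 9 by DESeq2 with its own size factors. The median log2 ratio of the NAC genes was -0.89, against -0.98 for all genes, and the median raw read level was 41.6% and 63.3% of WT in the 2 replicates. The NAC median thus lay close to that of all genes. With total-read scaling 16 members were reduced and 25 increased, beside 22.2% and 28.2% of all genes, and the same 16 genes were reduced under both scalings.

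The member with the largest reduction was NAC089 (AT5G22290, chromosome 5, 7375839 to 7377776), which codes for a membrane-tethered factor that acts in stress of the endoplasmic reticulum. Its region held 2485 and 2446 reads in WT and 393 and 377 in atbmi1abc, a log2 ratio of -2.55 ± 0.32 (adjusted p = 4.3e-13). That region lay upstream of the gene body, with 70.9% of its bases beyond the 2000 bp stretch. The strongest region on the body was reduced as well, by a log2 ratio of -1.46. NAC074 had 5771 and 5722 reads in WT against 1106 and 1434, the largest counts of the family, and a log2 ratio of -2.04. Of this region 61% lay beyond the gene and its upstream stretch. In VND3 the reads went from 2099 and 2367 in WT to 428 and 640, a log2 ratio of -1.96 ± 0.32 (adjusted p = 2.1e-08). NAC084 had 571 and 746 reads against 118 and 201, at an upstream region, and the region on its body had no call. In these 4 genes both mutant libraries lay far below both WT libraries, and all were reduced under both scalings.

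The 3 phloem genes, NAC020 and the sieve element genes NAC045 and NAC086, moved together. NAC020 had 778 and 970 reads in WT against 191 and 204, NAC045 had 261 and 544 against 54 and 169, and NAC086 had 331 and 333 against 84 and 85. Their log2 ratios were -2.02, -1.85 and -1.87, and all 3 were reduced under both scalings. These regions lay upstream, and the strongest regions on the 3 gene bodies were reduced too, with log2 ratios of -0.96, -1.57 and -0.77.

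The seed, membrane-tethered, stress, senescence and root cap groups were also reduced in most members with the main scaling, but few of these calls held with total-read scaling. All 8 seed, flowering and growth genes were reduced, with log2 ratios down to -1.65 in NAC056, a gene of seed coat and embryo development that had 1028 and 1252 reads in WT against 315 and 349. Of the membrane-tethered members 9 of 10 tested were reduced. The exception NTM1 (NAC068), a factor that acts in cell division, had 83 and 80 reads in WT against 91 and 87. Of 7 stress genes 6 were reduced, ATAF1 the most with 463 and 797 reads in WT against 139 and 280. Of 5 senescence genes 4 were reduced, and ORE1, a central driver of leaf ageing, went from 600 and 688 reads to 298 and 495 without passing the test (adjusted p = 0.087). Of 5 root cap genes 4 were reduced. With total-read scaling the reductions were 1 of 8 seed, flowering and growth genes (NAC056), 3 of 10 membrane-tethered, 1 of 7 stress (ATAF1), and none of the 5 senescence or 5 root cap genes, and 1 gene was increased in each of the last 4 groups. In the smaller groups 1 of 3 wound and graft genes and 1 of 2 DNA damage genes were reduced, and with total-read scaling none of either was reduced and 2 and 1 were increased.

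The xylem and fibre wall group had the mixed picture, with 6 of 12 reduced. VND1, VND2, VND3, NST2, SND2 and VNI2 were reduced, NST2 (a fibre and anther wall switch) from 498 and 691 reads to 125 and 193, a log2 ratio of -1.80 ± 0.34 (adjusted p = 1.4e-06). NST1 had 394 and 370 reads in WT against 229 and 441, so its mutant libraries lay on either side of WT. VND7 had 232 and 323 against 119 and 273, and VND5 had 86 and 129 against 87 and 137. With total-read scaling VND1, VND3 and NST2 stayed reduced, while VND5, VND7, NST1, NST3, SND3 and XND1 were called increased.

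**Figure D3:**
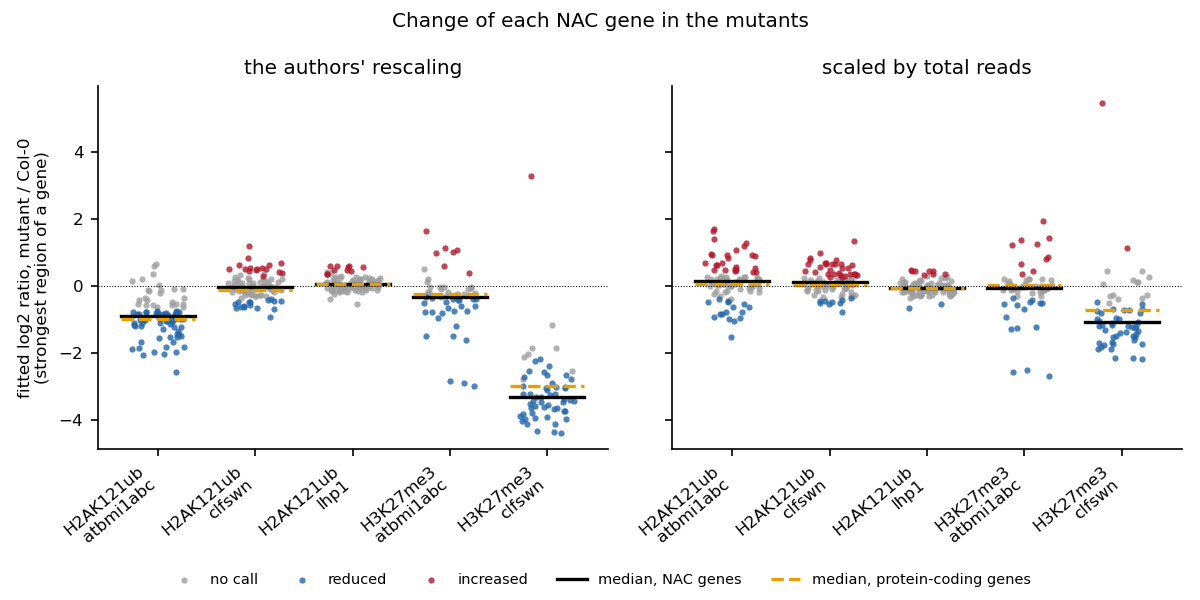
Fitted log2 ratio of mutant to WT for the strongest region of each NAC gene (points, coloured by call) in the 5 comparisons, with the authors' rescaling on the left and total-read scaling on the right, and lines at the medians of NAC and of all protein-coding genes. On the left the NAC medians of -0.89, -0.03, 0.07, -0.31 and -3.30 lie near those of all genes at -0.98, -0.12, 0.07, -0.23 and -2.97, and on the right both medians of the H2AK121ub comparisons lie close to 0.

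Loss of CLF and SWN, the H3K27me3 enzymes, left H2AK121ub on NAC genes near the WT level, with moves in both directions. Of 90 genes tested 16 were reduced, beside 29.1% of all genes, and 16 were increased, beside 12.4%. The median log2 ratio was -0.03 against -0.12 for all genes, and raw levels had medians of 95.1% and 93.7% of WT. With total-read scaling 9 members were reduced and 30 increased, beside 17.9% and 22.6%, and without the replicate block 2 and 3. All 16 increases lay on gene bodies, as did 1710 of 2529 increases over all genes and 81.1% of the NAC regions tested. The increases were mostly in genes with both marks in WT, 12 of 46 (26.1%, and 16.3% of all such genes), with 1 of 38 in the only-H2AK121ub class (2.63%, and 5.87%). The reductions were 6 of 46 (20.2% of all such genes) and 10 of 38 (40.9%). With total-read scaling the increases were 20 of 46 and 5 of 38 and the reductions 2 and 7.

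The xylem and fibre wall group held 7 of the 16 increases, with 7 of its 14 genes increased, 1 reduced and a median log2 ratio of 0.38. VND7, the master switch of protoxylem vessels, went from 232 and 323 reads in WT to 388 and 445 in clfswn, a log2 ratio of 0.63 ± 0.12 (adjusted p = 3.8e-07). VND1 went from 247 and 202 reads to 369 and 305, and XND1, a negative regulator of xylem differentiation, from 580 and 569 to 787 and 811. NST3, a fibre switch, had 296 and 282 reads in WT against 426 and 372. In these 4 genes both clfswn libraries lay above both WT libraries. The other 3 had fewer reads and smaller gaps. VND5 had 86 and 129 reads against 130 and 149, VND4, which was not marked by H2AK121ub in WT, 52 and 36 against 56 and 82, and SND3 109 and 72 against 157 and 95. Region limits differ between the replicates, and per kb of region both clfswn libraries lay above both WT libraries in all 7 genes.

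The remaining wall genes were VND3, the reduced one, with 2099 and 2367 reads in WT against 1628 and 1504, and 6 without a call: VND2, VND6, NST1, NST2, SND2 and VNI2. NST2 had 498 and 691 reads against 506 and 518. With total-read scaling 10 wall genes were increased and none reduced, with DESeq2 4 and none, and without the replicate block 1 and none. Taken from a single replicate, a count added after the data were seen, 8 lay over 120% without replicate 1 and 7 without replicate 2. The 6 genes without a call had log2 ratios from -0.16 in NST2 to 0.33 in VND6.

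**Figure D4:**
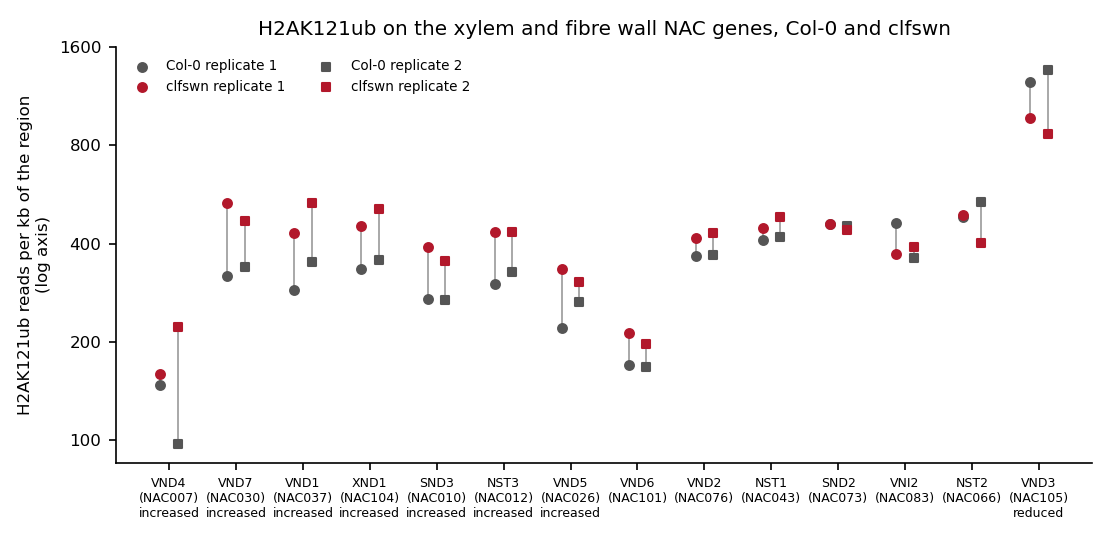
H2AK121ub reads per kb of region (log axis) on the 14 xylem and fibre wall NAC genes, 1 point per Col-0 or clfswn library with a line joining each replicate's pair, genes ordered by log2 ratio. Both clfswn points lie above both Col-0 points in the 7 genes called increased, and both lie below in VND3.

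The largest increase of the family in clfswn was that of NAC067 (AT4G01520, chromosome 4, 656407 to 659178), one of the genes whose promoter is printed above. It had 153 and 129 reads in WT against 337 and 294, a log2 ratio of 1.20 ± 0.14 (adjusted p = 1.5e-16). NAC038 followed with 75 and 94 reads against 127 and 167, and FEZ, which orients divisions of root cap stem cells, rose from 454 and 456 to 644 and 643. LOV1, a regulator of flowering time, rose from 383 and 372 reads to 475 and 485. NAC023, which like VND4 had only H3K27me3 in WT, went from 204 and 82 to 290 and 116. Of all genes of that class tested, 43.1% were increased in this comparison.

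The membrane-tethered group leaned the other way, with 5 of 10 reduced and 1 increased, and a median log2 ratio of -0.37. Of all genes tested 29.1% were reduced and 12.4% increased. In WT 8 of the 12 members carried only H2AK121ub, and of all genes of that class 40.9% were reduced, with a median of -0.26. The lean is thus not shown to be particular to the group. NAC014 fell from 172 and 178 reads in WT to 81 and 100, a log2 ratio of -0.91 ± 0.17 (adjusted p = 7.6e-07), at a region upstream of its body. NAC089 fell from 2485 and 2446 to 1458 and 1542 and NAC060, a factor in sugar signalling, from 426 and 344 to 234 and 286. NAC016 and NAC017 are neighbours and share 1 region, with 194 and 195 reads against 109 and 130, so they count as a single measurement. All 5 were reduced under both scalings. DESeq2 and the fit without the replicate block each left 1 of 10 reduced, and gene bodies alone gave 3 of 7 reduced and 1 increased, with a median of -0.22. Outside this group, ATAF1 fell from 463 and 797 reads to 287 and 522, ATAF2 from 140 and 270 to 105 and 159, and NAC036, a growth regulator of leaves and stems, from 372 and 321 to 234 and 201.

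**Figure D5:**
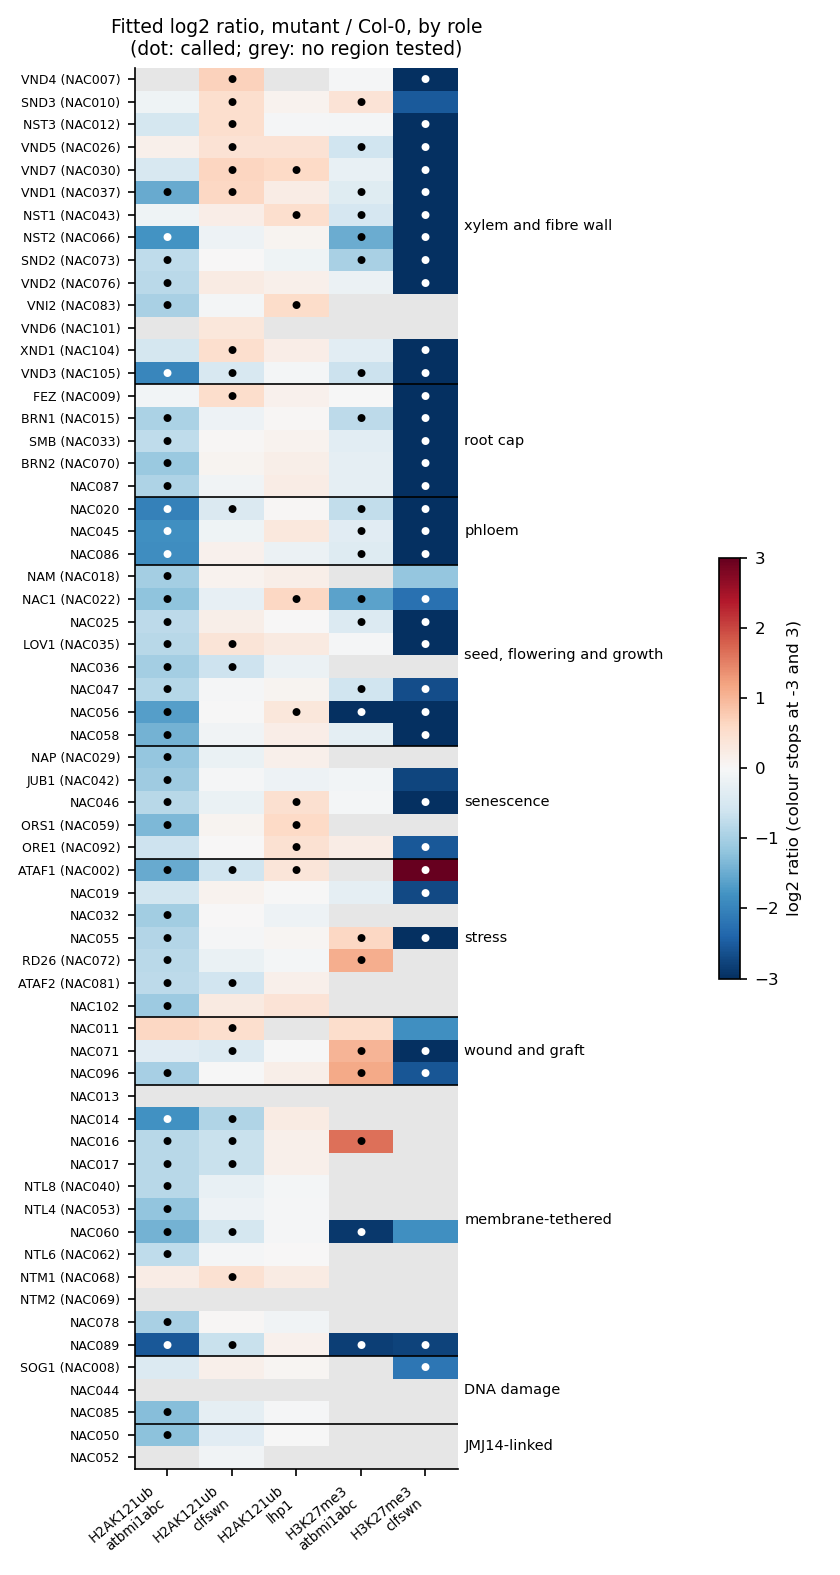
Fitted log2 ratio of mutant to WT (colour, ending at -3 and 3) for each member with a listed role (rows) in the 5 comparisons (columns), with dots for calls and grey where no region was tested. The clfswn column of H2AK121ub is red for most wall genes, with a group median of 0.38, and blue for several membrane-tethered genes, with a median of -0.37.

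Loss of LHP1, a reader of H3K27me3, changed H2AK121ub on few NAC genes. Of 84 tested none was reduced, beside 0.843% of all genes, with 2 lower at an unadjusted p under 0.05 and none by DESeq2. Increases were called in 10, beside 9.56%, so the share was near the background. The median log2 ratio was 0.07, as over all genes, and the raw levels had medians of 122.9% and 103.1% of WT. With total-read scaling 2 were reduced and 8 increased, beside 3.78% and 6.17%. DESeq2 and the fit without the replicate block called none of the 10.

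NAC1 (NAC022, AT1G56010, chromosome 1, 20946571 to 20949281), which acts in auxin signalling and lateral root formation, had the largest increase in lhp1. It went from 193 and 195 reads in WT to 370 and 271, a log2 ratio of 0.62 ± 0.15 (adjusted p = 0.00093). NAC067 went from 153 and 129 to 245 and 209. ORS1, a paralogue of ORE1 in leaf ageing, went from 285 and 232 to 494 and 347. In all 3 genes both lhp1 libraries lay above both WT libraries. VND7 went from 232 and 323 reads to 440 and 442, VNI2 from 595 and 488 to 909 and 801, and NST1 from 394 and 370 to 638 and 521, so 3 of 12 wall genes were increased, under both scalings. In the senescence group 3 of 5 were increased, ORS1, NAC046 (583 and 735 reads against 1083 and 889) and ORE1 (600 and 688 against 1057 and 839), while NAP had 1336 and 1530 against 1968 and 1480 and JUB1, which delays ageing, 366 and 283 against 349 and 275. Replicate 1 carried the larger rise: without it 1 senescence gene lay over 120%, and without replicate 2 the number was 4. The other genes called were ATAF1 and NAC056.

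To ask whether H3K27me3 depends on the AtBMI1 proteins at NAC genes, 54 genes with a region in both replicates were compared. In atbmi1abc 25 had reduced H3K27me3, beside 43.1% of all genes, and 7 had increased H3K27me3, beside 22.8%. The median log2 ratio was -0.31 against -0.23, with raw medians of 74.8% and 84.0% of WT. With total-read scaling 15 were reduced and 10 increased, beside 32.0% and 35.0%, and 22 of the 32 calls were kept. Without the replicate block 12 were reduced and 3 increased.

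NAC056 (AT3G15510, chromosome 3, 5243432 to 5245510) had the largest reduction, with 621 and 469 reads in WT against 62 and 77, a log2 ratio of -2.98 ± 0.18 (adjusted p = 1e-60). NAC060 had 126 and 72 reads against 13 and 14, and NAC089 230 and 170 against 24 and 33, both at about the same ratio. NAC089 had no H3K27me3 region on its body in this comparison, only upstream. NAC074 fell from 6570 and 5096 reads to 2232 and 1829, and NST2 from 477 and 436 to 174 and 151 at an upstream region, with the region on its body lower too by a log2 ratio of -2.17. NAC1 fell from 157 and 63 to 39 and 31, upstream of the body. In all 6 genes both mutant libraries lay below both WT libraries, and H2AK121ub was reduced in all 6 as well.

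The 7 increases were smaller in number, and 5 lay only upstream, as did 1142 of 2461 increases over all genes. NAC016 rose from 69 and 81 reads in WT to 208 and 266, a log2 ratio of 1.66 ± 0.21 (adjusted p = 6.7e-15). NAC071, which acts in wound healing and grafting of stems, rose from 419 and 317 to 810 and 647, and NAC080 from 340 and 515 to 635 and 1047. RD26, a factor in the drought and abscisic acid response, rose from 68 and 38 reads to 114 and 108. NAC096 went from 62 and 261 to 70 and 789, over a region of 385 bp in replicate 1 and 3538 bp in replicate 2. These 5 regions touched only the upstream stretch. NAC016, RD26 and NAC096 carried only H2AK121ub in WT. Regions with a peak in the mutant alone were also tested, and 82.6% of all genes of this class tested were increased (NAC genes 3 of 4). On gene bodies 2 members were increased, NAC055, a jasmonate and abscisic acid response gene, from 617 and 458 reads to 868 and 732 and SND3, a wall regulator, from 1154 and 857 to 1277 and 1292.

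Among the wall genes 6 of 12 were reduced and 1 increased, and 4 and 1 with total-read scaling. VND5 went from 4707 and 3835 reads to 2909 and 2539, VND3 from 2203 and 1610 to 1202 and 1155 and SND2 from 650 and 568 to 324 and 296. VND7 had 4314 and 3407 reads against 3367 and 2945, without a call. All 3 phloem genes were reduced, NAC020 the most with 1948 and 1516 reads against 1072 and 944, and NAC020 alone with total-read scaling. Of 5 root cap genes only BRN1 was reduced, from 579 and 458 reads to 315 and 281. FEZ had 2565 and 2122 against 2366 and 2085. Of the 3 senescence genes tested none was called, and ORE1 had 2742 and 2015 reads against 2840 and 2449. Its region ran from -9434 to -1172 bp relative to the start in replicate 1, off the gene body and mostly beyond the upstream stretch. ORE1 alone was higher at an unadjusted p under 0.05, and it was called increased with total-read scaling and by DESeq2.

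Both marks could be read in atbmi1abc in 52 genes. In 19 both were reduced, and in 5 (NAC016, NAC055, RD26, NAC080 and NAC096) H2AK121ub was reduced while H3K27me3 was increased. Each mark was read at its own strongest region, and in NAC016, RD26 and NAC080 the 2 regions did not overlap. Over all genes tested, 66.0% were reduced in H2AK121ub, and 43.1% were reduced and 22.8% increased in H3K27me3. The joint shares over all genes are not given here. Across the 52 genes the change of 1 mark and that of the other had a Pearson r of 0.47 and a Spearman rho of 0.43. The 2 changes are not independent and share the mutant's seedlings, so this is a description only.

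H3K27me3 was reduced in clfswn on most NAC genes that carried it. In clfswn 50 of 58 genes were reduced, beside 72.1% of all genes, and 1 was increased, beside 9.66%. The median log2 ratio was -3.30 (-3.97 and -2.62 in the 2 replicates) against -2.97 for all genes, and the raw levels had medians of 6.29% and 15.5% of WT. With total-read scaling 43 were reduced and 2 increased, beside 57.7% and 14.1%, with a median of -1.07 against -0.72. Of the 46 genes with both marks 43 were reduced (93.5%, and 87.3% of all such genes), and 40 with total-read scaling. Peaks of clfswn itself lay on 3 and 12 NAC genes in the 2 replicates, 3.09% and 12.4% against 7.60% and 17.1% of all genes, whereas WT peaks of the same tables lay on 58 and 57. The errors of single genes were wide here.

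VND7 (AT1G71930, chromosome 1, 27074702 to 27077991) went from 4268 and 3065 reads in WT to 122 and 231, a log2 ratio of -4.37 ± 1.47 (adjusted p = 0.03). NST1 went from 9679 and 6575 reads to 264 and 507 and NAC067 from 9541 and 6312 to 282 and 469. SMB, which ends stem cell divisions in the root cap, had 2670 and 1880 reads against 78 and 196, and VND2 3441 and 2307 against 124 and 219. NAC099 went from 3148 and 2120 reads to 106 and 199. In each of these genes both mutant libraries lay far below both WT libraries, and all 6 were reduced under both scalings. In the wall group 11 of 12 were reduced, with SND3 (1347 and 871 reads against 139 and 233, adjusted p = 0.062) as the exception. All 5 root cap and all 3 phloem genes were reduced, and with total-read scaling all 8 of them stayed reduced. All 8 carried both marks in WT, and of all genes of that class tested 87.3% were reduced, and 73.3% with total-read scaling.

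The single increase was in ATAF1 (AT1G01720, chromosome 1, 267993 to 269819), a stress factor that carried only H2AK121ub in WT. Of all genes of that class tested, 37% were increased in this comparison. It had 23 and 46 reads in WT against 119 and 705 in clfswn, a log2 ratio of 3.28 ± 1.36 (adjusted p = 0.033), over regions of 584 and 1872 bp in the 2 replicates. Replicate 2 gave most of these reads. ATAF1 was among the genes with lower H2AK121ub in the same mutant, as given above.

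Several wall genes thus showed opposite directions of the 2 marks in clfswn: VND1, VND4, VND5, VND7, NST3 and XND1 were increased in H2AK121ub and reduced in H3K27me3. NAC067 had the same pair of calls. Over all genes tested in clfswn, 12.4% were increased in H2AK121ub and 72.1% reduced in H3K27me3. The joint share over all genes is not given here, so the pair of calls is not shown to be particular to wall genes. The 2 marks were measured in separate libraries.

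The microRNA miR164 cuts the transcripts of some NAC genes, and its sequence shows which members it can pair with. The mature forms below come from the TAIR10.1 annotation, with the seed (bases 2 to 8) in capitals. MIR164A and MIR164B give the same 21 bases and MIR164C differs at the last base, so all share 1 seed.
miR164a: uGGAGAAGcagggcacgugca
miR164b-5p: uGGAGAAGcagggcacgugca
miR164c-5p: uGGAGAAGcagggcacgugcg
A stretch with at most 4 mismatches to the full complement of miR164a, G:U pairs counted as mismatches, was found in 4 of 97 NAC transcripts and 13 of 27440 protein-coding genes. All 4 lay in coding exons and are printed in the sense of the mRNA with mismatched bases in capitals.
NAC1: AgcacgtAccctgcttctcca
NAC080: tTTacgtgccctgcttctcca
NAC100: tCTacgtgccctgcttctcca
ORE1: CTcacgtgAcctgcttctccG
NAC1, NAC080 and NAC100 had 2 mismatches and ORE1 had 4. The sites lie at chr1:20947142-20947162 (minus strand), chr5:2436958-2436978 (plus strand), chr5:24701687-24701707 (minus strand) and chr5:15858797-15858817 (minus strand). All 3 miR164 genes carried both marks in WT, and all 3 had reduced H2AK121ub in atbmi1abc, with log2 ratios from -1.70 to -1.05, beside 66.0% of all genes reduced and a median of -0.98. Of the 4 target genes NAC1, NAC080 and NAC100 were reduced in the same comparison and ORE1 had no call. With total-read scaling 1 of the 3 miR164 genes and none of the 4 target genes was reduced, and ORE1 was increased. In clfswn the 3 miR164 genes had H2AK121ub log2 ratios from -0.28 to 0.18, without a call, and MIR164B and MIR164C were reduced in H3K27me3, beside 72.1% of all genes, with 1 of the 3 reduced with total-read scaling.

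Genes that act below the NAC switches were read in the same way. Of 12 wall genes (MYB46 and MYB83, direct targets of the wall switches, other MYB factors, cellulose synthases, laccases and xylem proteases), 8 carried H2AK121ub, 8 H3K27me3 and 6 both in WT, beside 67.0%, 34.4% and 28.4% of all genes. In clfswn 9 of 10 tested were reduced in H3K27me3, beside 72.1%, and 8 were reduced and 1 increased with total-read scaling. In H2AK121ub of clfswn 3 of 10 (CESA7, LAC4 and MYB85) were increased, beside 12.4%, with none reduced and a median log2 ratio of -0.03, and total-read scaling again gave 3 and none. In atbmi1abc 6 of 10 were reduced in H2AK121ub, beside 66.0%, and with total-read scaling 1 was reduced and 2 increased. H3K27me3 in atbmi1abc was reduced in 4 of 9 and increased in 2, beside 43.1% and 22.8%, so these shares were near the background. With total-read scaling the counts were 3 and 3, beside 32.0% and 35.0%. Of 5 genes of leaf ageing (BFN1, SAG12, SAG29, NYE1 and NYC1) all carried H2AK121ub and 3 H3K27me3. In atbmi1abc 4 of them were reduced in H2AK121ub, beside 66.0% of all genes, and 2 with total-read scaling, beside 22.2%. In lhp1 their log2 ratios ranged from -0.23 to 0.23.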

How the data were processed

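The study measured 21 samples, 1 of them an input library not analysed here. According to the methods, the authors used bowtie to align reads to TAIR10 and kept those with a unique place, called peaks per library with MACS2 against a common input, and deposited raw read counts for the regions of a mutant and its WT library, 1 table per replicate (10 tables). The authors rescaled the mutant values linearly on a log2 scale in the manner of MAnorm. The deposited log2 ratios were used only to recover the constants of that rescaling, which multiplied reads by a median factor of 0.904 to 1.10, and their other columns of ratios and p-values were not used. Which H3K27me3 column is the mutant rests on the order of names in the tables.

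Regions of the 2 replicate tables were paired where each was the other's best overlap (1 bp or more), leaving out the duplicate listing of shared peaks and organelle regions, and assigned to TAIR10.1 (RefSeq) genes with the 2000 bp upstream. Chromosome lengths matched the tables, apart from 1 region on chromosome 3 that ended at 23459839, past the reference end at 23459830. Counts were fitted with edgeR 4.0.16 (R 4.3.3; quasi-likelihood test, replicate as block, the rescaling as offset) over all matched regions, after tests on simulated data, with p-values adjusted over all regions. DESeq2 1.42.0, TMM, total-read scaling, a minimum of 50 reads, other region choices and the omission of each replicate were alternatives. Errors cover 2 pairs of libraries only. The named genes are the 6 with the largest called ratios in each direction, the 5 with the highest WT levels, and the members with a listed role. Members and lists were chosen with earlier results of these data known. MYB103 had no unique symbol match. Protein sequences were not used here.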

Additional observations from a re-analysis of the deposited data

Results flagged for a closer look

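Some members were called in opposite directions in different mutants, with the main scaling. The difference was not tested in any of them, and the mutants share WT libraries in H2AK121ub. The shares of such opposite calls over all genes are not given here. For atbmi1abc and clfswn this held for 3 genes in H2AK121ub, LOV1 (NAC035), VND1 (NAC037) and NAC061, all reduced in atbmi1abc and increased in clfswn, and for VND1 also with total-read scaling. For atbmi1abc and lhp1 it held for 6 genes, ATAF1, NAC1, NAC046, NAC056, ORS1 and VNI2, reduced in the former and increased in the latter, and for none of them under both scalings. For clfswn and lhp1 it held for 1 gene, ATAF1, and not under both scalings. In H3K27me3 it held for 4 genes, NAC055, NAC071, NAC080 and NAC096, increased in atbmi1abc and reduced in clfswn, of which NAC055 and NAC071 kept both calls with total-read scaling.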

How the results depend on the processing

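With total-read scaling, H2AK121ub calls (reduced, increased) and the NAC median log2 ratio became 16, 25 and 0.15 in atbmi1abc, 9, 30 and 0.13 in clfswn, while lhp1 had 2 reduced and a median of -0.058. H3K27me3 gave 15 reduced and -0.055 in atbmi1abc, and 2 increased and -1.07 in clfswn. TMM gave 16, 24 and 0.077 for H2AK121ub in atbmi1abc, 27 increased and 0.10 in clfswn, 2 reduced and -0.031 in lhp1, and 33, 5 and -0.62 for H3K27me3 in clfswn. DESeq2 gave 10, 9 and 0.074, 1, 8 and 0.10, and 0 increased and -0.034 for H2AK121ub in atbmi1abc, clfswn and lhp1, and 33, 2 and -0.68 for H3K27me3 in clfswn. Of the main calls, total-read scaling kept 16 of 62, 25 of 32, 8 of 10, 22 of 32 and 43 of 51 in the order of the report. The medians of H2AK121ub thus changed sign with the scaling in all 3 mutants.

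Same-numbered libraries were counted over the same region limits, and their deviations per kb correlated by 0.058, 0.174, 0.098, 0.128 and 0.079, so the replicate number is a shared number and not a shown pairing. The fit with no replicate block gave 2 reduced and 3 increased in H2AK121ub of clfswn, 0 increased in lhp1, and 12 and 3 in H3K27me3 of atbmi1abc. The main calls and their errors all use the replicate block, and the cause of the lost calls was not tested.

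The most reduced region of a gene gave 25 and 4 calls and a median of -0.19 in H2AK121ub of clfswn and 4 increases in lhp1. Gene bodies alone gave 9 reductions and a median of 0.0044 in H2AK121ub of clfswn and 2 increases in H3K27me3 of atbmi1abc. They gave H2AK121ub on 78.4% of NAC genes in WT, against 50% of all genes. Peaks above the median reads per kb gave 49.5%, against 44.2% of all genes. Taken from a single replicate, with no test, H2AK121ub increases ranged from 2 to 6 genes in atbmi1abc and from 9 to 29 in lhp1, reductions in lhp1 from 0 to 3, and the median in clfswn from -0.050 to -0.035. Of the recomputed values 123 kept their direction and size class, 42 moved and 10 changed sign. The cause of these differences was not tested.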
